A study of Mus musculus with 14 samples.

Results

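The 44 genes described here encode the protein folding and secretion machinery of the endoplasmic reticulum (ER) and the unfolded protein response that regulates it. They were taken from a list of symbols and were found as 44 of 39179 genes in the time course table and 44 of 35886 genes in the sorted libraries. All 44 passed the low-value filter of both experiments. By role they comprise 11 chaperones, 5 disulfide and proline isomerases, 8 sensors and transcription factors, 8 translocation genes, 8 genes of COPII export and retrieval, and 4 genes of ER-associated degradation.

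RNA was sequenced from mouse Ocy454 cells, a single osteocyte-like line immortalized by a thermosensitive large T antigen, which divides at 33 °C and differentiates at 37 °C. In the time course, wild-type cells were kept at 37 °C for 1, 7, 10 or 14 days, with 2 biological replicates per day. In the sort, wild-type cells differentiated for 17 days were dissociated with trypsin, labeled for CD61 (integrin β3, encoded by Itgb3), and the live cells with the highest 10% (CD61high) and lowest 10% (CD61low) of signal were collected. The study's methods describe 3 independent groups of cells, from which both fractions were taken, so the 6 libraries are not 6 separate cultures, and which high and low libraries share a group is not given in the sources used here. Every sample carried the T antigen, and no other line or treatment was part of either comparison.

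Proteins destined for the bone matrix, above all type I collagen, enter the ER through the Sec61 channel, are folded and modified by chaperones and isomerases, and leave in COPII-coated carriers. When unfolded protein accumulates, Ern1 (IRE1α), Eif2ak3 (PERK) and Atf6 signal to the nucleus, where spliced Xbp1, the ATF4 branch and cleaved Atf6 raise chaperone, transport and degradation genes. Collagen-secreting cells also use Creb3l1 (OASIS), an ER-anchored transcription factor cleaved in the Golgi and known to drive type I collagen in osteoblasts.

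Totals were 27518605 to 34311238 reads in the time course libraries and 18815602 to 19220064 estimated counts in the sorted libraries. Itgb3 followed the gate, at 5.65 ± 0.41 TMM-normalized CPM in CD61low and 111 ± 16.4 in CD61high cells (SD, n = 3), and rose from 10.6 ± 0.46 to 57.3 ± 0.43 CPM from day 1 to day 14 (SD, n = 2). All 10 of 10 osteoblast and osteocyte lineage markers were higher in CD61high cells, where their summed level was 23630 to 26519 TPM against 10025 to 12689 TPM in CD61low cells. Of 11 macrophage, endothelial and adipocyte markers with values in both experiments, 10 stayed under 1 CPM and 1 TPM in all 14 libraries, with Csf1r (0.827 CPM) and Pecam1 (0.754 TPM) reaching the highest values, and the lysosomal gene Cd68 was detected and was lower in CD61high cells (Log2FC -0.81). Of 3 chondrocyte markers tested, 2 were higher in CD61high cells (Sox9 and Col2a1, with a summed level of the list of 15.02 to 18.75 TPM in CD61low and 31.4 to 38.7 TPM in CD61high libraries) and 2 at day 14. The muscle actin gene Acta1 was higher in CD61high cells (Log2FC 0.94) and at day 14 (3.00), while the muscle regulator Myog was at 0 in all 14 libraries. As called in the tests below, 19.4% of all genes were higher and 16.0% lower in CD61high cells, and 32.6% and 36.0% at day 14. The part of these marker differences in the results was not tested.

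Between the sorted fractions, the ER chaperones were the group with the largest difference. With edgeR's quasi-likelihood test, 19 of 44 members were lower and 5 were higher in CD61high cells (Benjamini-Hochberg adjusted p under 0.01), where 16.0% and 19.4% of all 12077 genes tested were called lower and higher. With a Log2FC beyond 1 as well, 13 members were lower and 1 was higher, against 4.37% and 4.84% of all genes. The members' median Log2FC was -0.22, against 0.0035 over all genes. Counts scaled by library size alone, in place of TMM (trimmed mean of M values), moved the median of all genes to -0.29 and the member calls to 35 lower and 2 higher. Because these are bulk samples, fewer cells of a type and less RNA per cell cannot be told apart.

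Of the 11 chaperones, 10 were lower in CD61high cells and none was higher, with a median Log2FC of -1.44. Hspa5 (BiP), the main ER Hsp70 and the buffer that holds the stress sensors inactive, was at 1912, 2163 and 1797 TMM-normalized CPM in the CD61low libraries and at 438, 438 and 449 in the CD61high libraries. The groups were far apart, and Hspa5 was 4.43-fold lower in CD61high cells (Log2FC -2.15 ± 0.08 SE, adjusted p = 1e-07, edgeR). Hyou1, the nucleotide exchange factor that works with Hspa5, was at 553, 615 and 567 in CD61low and at 122, 129 and 132 in CD61high libraries. Its Log2FC of -2.18 ± 0.07 was close to that of Hspa5.

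Sdf2l1, a small partner of the Hspa5 and Dnajb11 complex, had the largest decrease of all members. It was at 76.4, 87.8 and 65.0 TMM-normalized CPM in CD61low libraries and at 11.3, 15.3 and 13.6 in CD61high libraries, with a Log2FC of -2.51 ± 0.14 (adjusted p = 5.1e-07, edgeR). Creld2, an ER protein induced by folding stress, was at 154, 151 and 129 in CD61low and at 35.0, 41.1 and 39.6 in CD61high libraries. Its highest CD61high value was under its lowest CD61low value by a wide margin (Log2FC -1.91 ± 0.09).

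Manf, a stress-induced factor that binds Hspa5 and can be secreted, was at 252, 256 and 206 TMM-normalized CPM in CD61low and at 71.6, 76.8 and 84.8 in CD61high libraries (Log2FC -1.61 ± 0.10). Hsp90b1 (GRP94), the ER member of the Hsp90 family, was at 1492, 1622 and 1429 in CD61low and at 593, 500.4 and 581 in CD61high libraries (Log2FC -1.44 ± 0.09). Neither gene's groups overlapped. The lectin chaperones that bind glycoproteins differed from each other in size, with Log2FC of -1.25 ± 0.08 for soluble Calr and -0.59 ± 0.07 for membrane-bound Canx. The J-domain co-chaperones Dnajb11 and Dnajc3 had Log2FC of -1.06 and -1.02, while Dnajb9, an Hspa5 co-chaperone that restrains Ern1, did not pass the threshold (Log2FC -0.30 ± 0.09, adjusted p = 0.014, edgeR). Dnajb9 was called lower with DESeq2 (adjusted p = 0.0099) and with library size scaling (2e-04). All 10 chaperone calls held under every alternative run, including each library left out in turn.

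**Figure D1:**
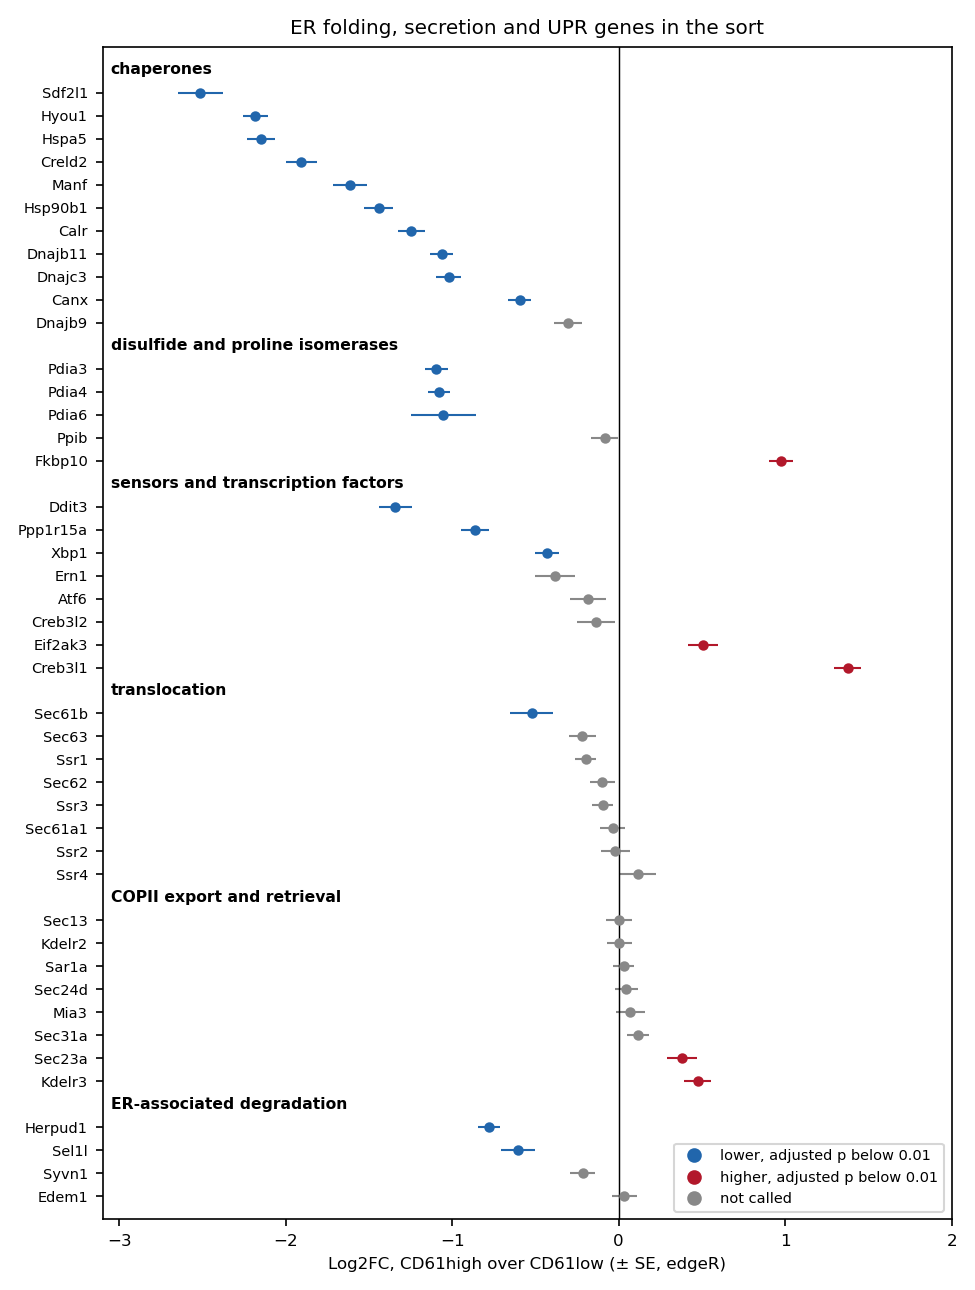
Log2FC of CD61high over CD61low cells on the x axis for the 44 members on the y axis, grouped by role, with bars for the standard error from edgeR and colors for the call. Chaperones lie between -2.51 and -0.30, whereas COPII genes lie between 0.0038 and 0.47.

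Among the isomerases, Pdia3 and Pdia4, which form disulfide bonds in new proteins, were 2.14-fold and 2.11-fold lower in CD61high cells (Log2FC -1.09 ± 0.07 and -1.08 ± 0.06). Pdia6 was also called lower (Log2FC -1.05 ± 0.20), but its value is uncertain. No estimated counts were found for its main protein-coding transcript in any of the 6 sorted libraries, so the counts of the gene rest on other transcripts. Whether the transcriptome used lacks or splits that transcript is not known. Pdia6 ranked 44 of the 44 members per length in the sort, against 15 in the time course. Without Pdia6, 18 members were lower.

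The prolyl isomerases Fkbp10 and Ppib were not called lower in CD61high cells. Fkbp10, a prolyl isomerase required for collagen crosslinking, was at 360.2, 324 and 351 TMM-normalized CPM in CD61low and at 640.0, 693 and 703 in CD61high libraries. All CD61high values were above all CD61low values, and Fkbp10 was 1.97-fold higher (Log2FC 0.98 ± 0.07, adjusted p = 3e-06, edgeR). Ppib (cyclophilin B), a prolyl isomerase in the collagen hydroxylation complex, was at 175 ± 12.18 in CD61low and 166 ± 12.03 in CD61high cells (SD, n = 3) and was not called (Log2FC -0.08 ± 0.08, adjusted p = 0.42, edgeR). Library size scaling called Ppib lower (Log2FC -0.38, adjusted p = 0.0026), and in TPM all its CD61high values were below all its CD61low values. Type I collagen itself was higher in CD61high cells, with a Log2FC of 1.34 ± 0.09 for Col1a1 and 1.37 ± 0.10 for Col1a2. In the time course Col1a1 went the other way and was lower than at day 1 on days 7, 10 and 14 (Log2FC -0.33, -0.68 and -0.47, each ± 0.09, adjusted p = 0.0015, 1.1e-07 and 2.7e-05, limma), and Col1a2 was not called on any of these days (-0.14, -0.14 and 0.07).

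Of the 8 sensors and transcription factors, 3 were lower and 2 were higher, beside 16.0% and 19.4% of all genes, so the number higher is near that of all genes. Creb3l1 had the largest increase of all members. It was at 746, 664 and 791 TMM-normalized CPM in CD61low libraries and at 1894, 1870.5 and 1945 in CD61high libraries, a 2.59-fold difference with no overlap (Log2FC 1.38 ± 0.08, adjusted p = 6.6e-07, edgeR). Creb3l2, its paralog that serves secretory load in chondrocytes, was at 102, 103 and 124 in CD61low and at 111, 83.4 and 105 in CD61high libraries. The Creb3l2 groups overlapped and the gene was not called (Log2FC -0.14 ± 0.12, adjusted p = 0.35, edgeR), but library size scaling called it lower (adjusted p = 0.005) and in TPM every CD61high value was below every CD61low value.

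Ddit3 (CHOP), the transcription factor induced late in the PERK and ATF4 branch, was at 125, 136 and 104.1 TMM-normalized CPM in CD61low and at 45.4, 50.9 and 47.8 in CD61high libraries. Ddit3 was thus 2.53-fold lower, with no overlap (Log2FC -1.34 ± 0.10, adjusted p = 3.2e-06, edgeR). Ppp1r15a (GADD34), the phosphatase subunit that ends PERK signaling, was at 263, 242 and 216 in CD61low and at 136, 134 and 127 in CD61high libraries (Log2FC -0.86 ± 0.08). Eif2ak3, which encodes PERK, went the other way. It was at 37.3, 32.2 and 39.3 in CD61low and at 54.4, 50.7 and 49.5 in CD61high libraries (Log2FC 0.51 ± 0.09, adjusted p = 0.001, edgeR). This call did not hold with a transcript length offset (adjusted p = 0.012) or library size scaling (adjusted p = 0.06), and the TPM values of the groups overlapped.

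Ern1, the kinase and nuclease that splices Xbp1 mRNA, was at 72.4, 73.8 and 91.0 TMM-normalized CPM in CD61low and at 69.6, 52.4 and 59.9 in CD61high libraries. All CD61high values were lower, but the decrease did not pass the threshold with edgeR (Log2FC -0.38 ± 0.12, adjusted p = 0.021), whereas it was called with DESeq2 (adjusted p = 0.0059), with library size scaling (0.00039) and with edgeR without CD61high replicate 1 (0.0063). Atf6, the membrane-tethered activator of chaperone genes, was at 135, 139.9 and 162 in CD61low and at 147, 111 and 126 in CD61high libraries. Its groups overlapped (Log2FC -0.19 ± 0.11, adjusted p = 0.17, edgeR), but library size scaling called it lower (adjusted p = 0.0018) and its TPM values did not overlap. Xbp1, the target of Ern1, was at 149, 143 and 135 in CD61low and at 99.97, 108 and 109.5 in CD61high libraries. The Xbp1 groups were separate, with a smaller fold than each of the 10 chaperones called (Log2FC -0.43 ± 0.07, adjusted p = 0.0007, edgeR).

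**Figure D2:**
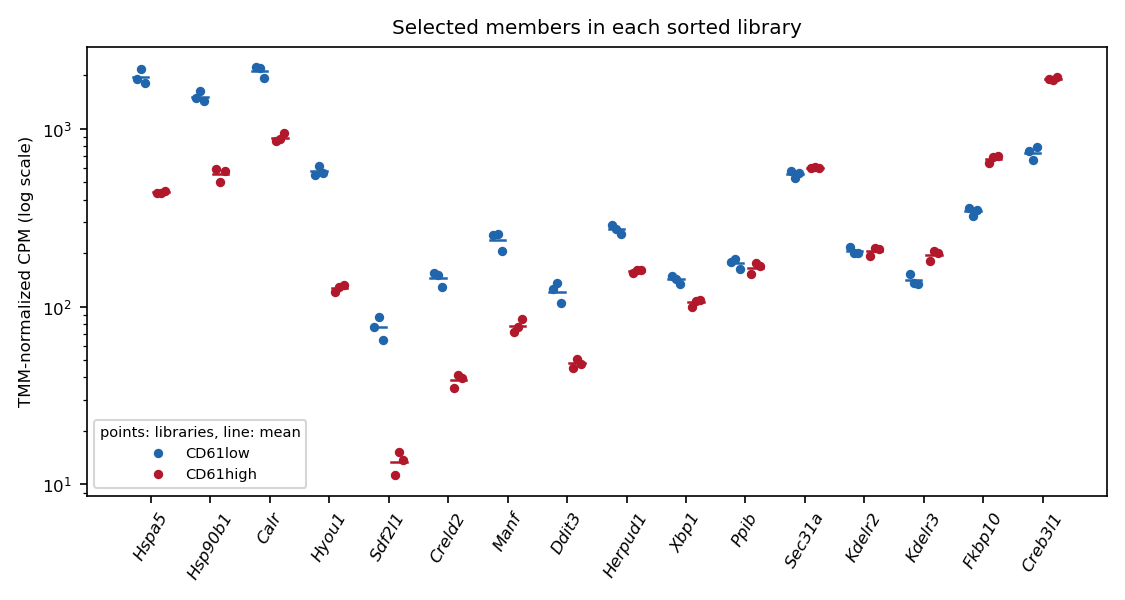
TMM-normalized CPM on a log y axis for 16 members on the x axis, with 1 point per sorted library (blue CD61low, red CD61high) and a line at the mean of 3. The Hspa5 points fall from 1797 to 2163 in CD61low to 438 to 449 in CD61high, while Creb3l1 and Fkbp10 lie higher in CD61high.

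Xbp1 mRNA becomes the active form when Ern1 removes a short stretch from its coding sequence, so this stretch is shown because it separates the spliced from the unspliced transcript. The window lies inside an exon and the coding sequence of the unspliced Xbp1 transcript on the plus strand at chr11:5474258-5474323 (GRCm39). The capitals mark the 26 bases at chr11:5474278-5474303 that the spliced transcript lacks.
Xbp1: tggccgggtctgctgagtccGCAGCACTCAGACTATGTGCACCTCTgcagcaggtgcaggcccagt
Of the estimated Xbp1 counts, 18.7%, 18.9% and 21.1% were assigned to the spliced transcript in the CD61low libraries and 19.0%, 17.9% and 20.2% in the CD61high libraries. The ranges overlapped, at 19.6% ± 1.3 and 19.0% ± 1.2 (SD, n = 3), and the difference of -0.55 percentage points had p = 0.7 in a two-sided exact permutation test, for which 0.1 is the smallest p that 3 against 3 allows. In TPM, which allows for transcript length, the shares were 31.7% ± 1.5 in CD61low and 31.2% ± 1.5 in CD61high cells (SD, n = 3), with p = 0.7 in the same permutation test. All these shares were estimated between transcript models that differ in their UTRs as well as in this stretch. They are therefore not a direct count of spliced molecules.

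Of the 8 translocation genes, which act before folding, 1 was lower and none was higher, a share near that of all genes lower (16.0%), with a median Log2FC of -0.10. Sec61b, the small β subunit of the Sec61 channel, was the gene called (Log2FC -0.52 ± 0.13, adjusted p = 0.0073, edgeR), and its call was lost when any of 4 libraries was left out (CD61high replicates 1 and 3, CD61low replicates 1 and 2, adjusted p = 0.018, 0.019, 0.025 and 0.037) and with a transcript length offset (0.012). In TPM, which is not TMM-scaled, the summed level of all 8 was 1708 to 1729 TPM in CD61low and 1218 to 1292 TPM in CD61high libraries. Counts scaled by library size alone had a median Log2FC of -0.29 over all genes, so this gap is not read as particular to translocation. The 7 translocation genes other than Sec61b, including the pore subunit Sec61a1 and the 4 subunits of the translocon-associated protein complex (Ssr1, Ssr2, Ssr3 and Ssr4), were not called.

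Of the 8 COPII and retrieval genes, 2 were higher and none was lower, beside 19.4% and 16.0% of all genes, with a median Log2FC of 0.06. Kdelr3, a receptor that returns escaped chaperones to the ER, was at 152, 136 and 135 TMM-normalized CPM in CD61low and at 180.2, 206 and 201 in CD61high libraries (Log2FC 0.47 ± 0.08, adjusted p = 0.00074, edgeR). The inner coat subunit Sec23a was at 80.3, 76.6 and 92.7 in CD61low and at 114, 99.2 and 112 in CD61high libraries (Log2FC 0.38 ± 0.09, adjusted p = 0.0057, edgeR). Neither call held when counts were scaled by library size alone (adjusted p = 0.084 and 0.45). That of Sec23a was also lost with a transcript length offset (0.031) and when CD61low replicate 1 or 2 or CD61high replicate 1 or 3 was left out (0.022, 0.031, 0.018 and 0.029). In TPM Sec23a was level, at 52.5 ± 5.6 in CD61low and 52.4 ± 5.9 in CD61high cells (SD, n = 3). The cargo-binding coat subunit Sec24d, the outer coat subunit Sec31a and the collagen export receptor Mia3 had Log2FC of 0.05, 0.12 and 0.07 and were not called. All 3 turned negative under library size scaling, which called Sec24d lower (adjusted p = 0.0078). For Sec31a every CD61high value was above every CD61low value in TMM-normalized CPM, and below every one in TPM.

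In ER-associated degradation, 2 of 4 genes were lower and none was higher, beside 16.0% and 19.4% of all genes. Herpud1, a stress-induced organizer of the retrotranslocation complex, had a Log2FC of -0.78 ± 0.07 (272 ± 14.6 in CD61low and 159 ± 3.3 TMM-normalized CPM in CD61high, SD, n = 3). Sel1l, the adaptor of that complex, had a Log2FC of -0.60 ± 0.10, and its ubiquitin ligase Syvn1 (HRD1) was not called (Log2FC -0.22 ± 0.07, adjusted p = 0.032, edgeR) except with library size scaling (0.00017).

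Counted together per length, the members made up 13632 to 14464 TPM of each CD61low library and 7548 to 7952 TPM of each CD61high library. TPM is not TMM-scaled, and counts scaled by library size alone had a median Log2FC of -0.29 over all genes. The full size of this gap is therefore not read as particular to the members. The chaperones accounted for most of this gap, at 6315 to 7127 TPM against 1761 to 1955 TPM. The sum of the sensors and transcription factors did not follow, at 1463 to 1501 TPM in CD61low and 1542 to 1641 TPM in CD61high libraries. Creb3l1 carried it, at 548 ± 55 TPM in CD61low cells and 1099 to 1193 TPM in CD61high libraries. Mean TPM of Eif2ak3 was also slightly higher in CD61high cells (16.0 ± 2.1 and 17.5 ± 1.4). The rest of this role had lower means there, such as Ddit3 (329 ± 42 and 108 ± 2.6) and Ppp1r15a (324 ± 44 and 154 ± 17). In CD61low cells, Calr (2206 ± 126 TPM) and Hspa5 (1490.3 ± 135 TPM) had the highest mean levels per length. In CD61high cells, Creb3l1 (1161 ± 54 TPM) was above every other member.

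**Figure D3:**
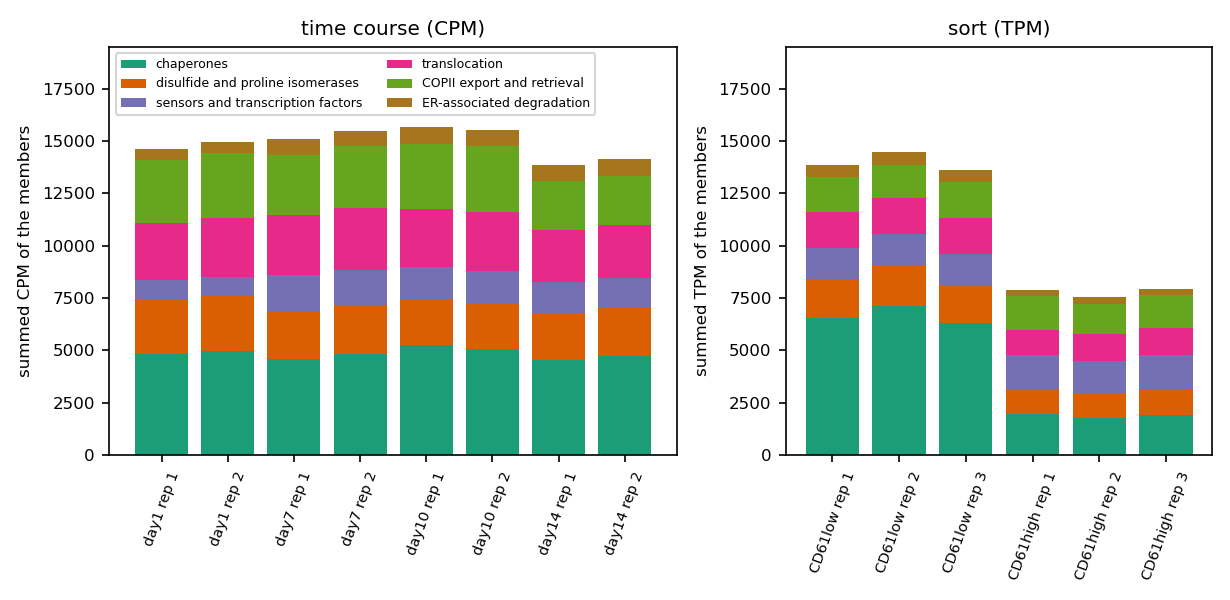
Summed level of the members on the y axis, stacked by role, for each library on the x axis, as CPM in the time course and TPM in the sort, which are different units. The chaperone block is 6315 to 7127 TPM in the CD61low libraries and 1761 to 1955 TPM in the CD61high libraries, while the time course totals stay between 13881 and 15684 CPM. The TPM values are not TMM-scaled.

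Markers of handling and of the cell cycle also differed between the fractions. Of 6 immediate early and stress genes that respond to dissociation, Fos (Log2FC 1.21) and Fosb (1.68) were higher and Atf3 (-1.27) was lower in CD61high cells, with summed levels of 716 to 804 TPM in CD61low and 819 to 1192 TPM in CD61high libraries. Of 5 proliferation genes, 3 were higher in CD61high cells, with summed levels of 405 to 494 and 528 to 576 TPM. The calls of both lists stand beside 19.4% higher and 16.0% lower over all genes, and the TPM sums are not TMM-scaled. The part of these differences in the chaperone result was not tested.

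Promoters of the members were searched for ER stress elements because the chaperones differed together. RefSeq promoters (GRCm38.p6, 250 bases before to 50 bases after the start) were found for 36 of the 44 members, and not for Hyou1, Manf, Fkbp10, Atf6, Creb3l1, Sec61a1, Ssr2 and Kdelr2. The ER stress response element ERSE, CCAAT followed after 9 bases by CCACG, on either strand, is bound by NF-Y and Atf6. It was present in 8 of these 36 members (22.2%) and in 39 of all 32851 promoters of the same length (0.119%). Members were counted by gene, with a match in any entry, and all promoters were counted by entry. The members were listed for their ER and stress roles, so their higher share is not an independent result. Of the 17 members with a promoter entry that were lower in CD61high cells, 7 held an ERSE (Hspa5, Hsp90b1, Calr, Canx, Dnajc3, Creld2 and Pdia6). Among the 16 that were not called it was found in 1 (Syvn1), and among the 3 that were higher in none. These differences were not tested, and the sort value of Pdia6 is uncertain. Most chaperones are in the lower group, so the split by call and the split by role cannot be told apart.

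The elements are shown for the chaperones and for Syvn1, which was not called in the sort. Each is printed 5′ to 3′ on the strand of the gene with 5 flanking bases. The capitals mark the ERSE or its reverse complement. Hsp90b1 held 2.
Hspa5: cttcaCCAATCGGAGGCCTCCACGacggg
Hsp90b1 distal: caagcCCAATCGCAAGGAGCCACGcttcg
Hsp90b1 proximal: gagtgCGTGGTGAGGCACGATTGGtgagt
Calr: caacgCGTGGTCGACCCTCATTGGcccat
Canx: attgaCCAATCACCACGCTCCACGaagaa
Creld2: cttctCGTGGCGAGCCTCAATTGGtccac
Dnajc3: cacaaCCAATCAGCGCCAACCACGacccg
Syvn1: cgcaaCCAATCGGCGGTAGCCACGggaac
Matched to GRCm39, these windows lie at chr2:34662032-34662060 for Hspa5, chr15:88703718-88703746 for Creld2, chr14:119175234-119175262 for Dnajc3 and chr19:6096557-6096585 for Syvn1 on the plus strand. On the minus strand they lie at chr10:86541497-86541525 and chr10:86541392-86541420 for Hsp90b1, chr8:85573699-85573727 for Calr and chr11:50216622-50216650 for Canx. The element ends 25 bases (Syvn1) to 193 bases (Hsp90b1 distal) before the RefSeq start. GENCODE M39 starts Hspa5 and Hsp90b1 further upstream, so the Hspa5 and proximal Hsp90b1 windows lie within the annotated gene.

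Other elements were rarer in these genes. ERSE-II, ATTGG followed after 1 base by CCACG, uses the half-sites of ERSE in another arrangement and was present in 12 of all promoters (0.0365%), among them Herpud1 and Dnajb11, both lower in CD61high cells. The Dnajb11 match lies after the start. The Herpud1 element lies at chr8:95113000-95113020 on the plus strand (GRCm39) and is printed with the ERSE-II in capitals.
Herpud1: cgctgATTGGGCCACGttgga
The XBP1-bound UPRE core, TGACGTGG, was found in Sec23a, Sec24d and Kdelr3 and in 0.676% of all promoters. Sec23a and Kdelr3 are 2 of the 3 members higher in CD61high cells that had a promoter entry, although neither call held under every alternative and the Sec23a match lies after the start. The core was in 0 of the 17 lower members, and this difference was not tested. The cyclic AMP element TGACGTCA was found in Ppp1r15a and in 1.79% of all promoters, and the C/EBP-ATF element TGATGNAAT in none of the 36 and in 0.965% of all promoters. A match is only a match of letters, and a promoter without one says only that these letters are not in this window.

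Along differentiation, members were called in both directions at every day. Log2FC values of the time course are on the log2(CPM + 1) scale and were tested with limma. The comparisons with day 1 share its 2 libraries. At day 7, 20 of 44 members were higher and 10 were lower than at day 1, where 24.5% and 32.0% of all 12725 genes tested were called. The day 10 counts were 25 higher and 11 lower, against 33.1% and 30.3% of all genes. Those of day 14 were 16 higher and 18 lower, against 32.6% and 36.0%. From day 7 to day 14, 5 members rose and 23 fell, against 27.0% and 21.8% of all genes. Of these 28 calls, 18 held under every alternative, and those of Calr, Creld2, Fkbp10, Ern1, Ddit3, Ppp1r15a, Ssr3, Ssr4, Sar1a and Syvn1 did not. Few changes were large, with 5, 3 and 4 members more than 1 Log2FC above day 1 at days 7, 10 and 14 (4.49%, 6.06% and 7.51% of all genes) and no member more than 1 below (4.62%, 4.42% and 5.90%). No member changed by more than 1 Log2FC from day 7 to day 14, where 1.91% of all genes rose and 0.519% fell by that much.

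Mean levels peaked on day 1 for 10 members, day 7 for 13, day 10 for 15 and day 14 for 6. Peak days were not counted over all genes, so these numbers are not read as particular to the members. The median Log2FC of the members was 0.07, 0.19 and -0.0064 at days 7, 10 and 14, beside -0.05, 0.02 and -0.03 over all genes. From day 7 to day 14 it was -0.16, beside 0.04 over all genes.

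Ddit3 had the largest increase of all members at days 7, 10 and 14. It was at 51.6 and 48.9 CPM on day 1, 154 and 153 on day 7, 195 and 165 on day 10, and 119 and 126 on day 14. All later libraries were above day 1, and Ddit3 was 2.41-fold higher at day 14 (Log2FC 1.27 ± 0.05 SE, adjusted p = 2.2e-17, limma). Ppp1r15a was at 42.2 and 39.2 CPM on day 1, 89.3 and 88.3 on day 7, 86.2 and 78.0 on day 10, and 76.4 and 75.3 on day 14 (Log2FC 0.88 ± 0.05 at day 14). It was highest at day 7 and remained above day 1 in every later library. The 6 immediate early and stress genes of the dissociation list also moved, although these cells were not sorted. At day 14, 5 of them were higher and none lower (median Log2FC 1.85), beside 32.6% and 36.0% of all genes. Their summed level was 111 to 115 CPM on day 1 and 330.1 to 349 CPM on day 14, and their part in the changes of the members was not tested.

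Creb3l1 was at 355 and 357 CPM on day 1, 904 and 885 on day 7, 683 and 721 on day 10, and 768 and 744 on day 14. The gene was already 2.51-fold higher at day 7 and stayed up (Log2FC 1.08 ± 0.04 at day 14, adjusted p = 2e-19, limma). Creb3l2 was at 62.7 and 63.5 CPM on day 1, 69.2 and 69.1 on day 7, 72.6 and 68.8 on day 10, and 82.2 and 71.0 on day 14. That increase was small and was called at day 14 (Log2FC 0.27 ± 0.05, adjusted p = 7e-05, limma). It was not called at day 7 or 10, except at day 7 with edgeR on recovered reads (adjusted p = 0.0077) and at day 10 with the replicate block (adjusted p = 0.006, limma).

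The 3 stress sensors rose in mid-course, and none was called higher at day 14. Ern1 was at 55.6 and 59.5 CPM on day 1, 72.7 and 71.1 on day 7, 97.0 and 90.1 on day 10, and 62.8 and 57.4 on day 14. Its day 10 value was 1.62-fold that of day 1 (Log2FC 0.69 ± 0.05), and the day 14 and day 1 libraries overlapped (Log2FC 0.06 ± 0.05, adjusted p = 0.29, limma). Eif2ak3 was at 65.1 and 63.2 CPM on day 1, 75.9 and 76.0 on day 7, 85.5 and 85.6 on day 10, and 56.9 and 52.7 on day 14. It ended below its start (Log2FC 0.41 ± 0.05 at day 10 and -0.23 ± 0.05 at day 14).

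Atf6 was at 164 and 158 CPM on day 1, 185 and 176 on day 7, 209 and 204 on day 10, and 166 and 169 on day 14. Its rise at day 10 passed the test (Log2FC 0.36 ± 0.04) and its day 14 value did not (Log2FC 0.05 ± 0.04, adjusted p = 0.22, limma). The day 7 call of Atf6 was lost when day 1 replicate 2 or day 7 replicate 1 was left out (adjusted p = 0.027 and 0.031). Xbp1 was at 108 and 111 CPM on day 1, 178 and 188 on day 7, 144 and 156 on day 10, and 127 and 128 on day 14. Its highest mean was at day 7, while that of each sensor was at day 10 (Log2FC 0.73 ± 0.04 at day 7 and 0.21 ± 0.04 at day 14).

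**Figure D4:**
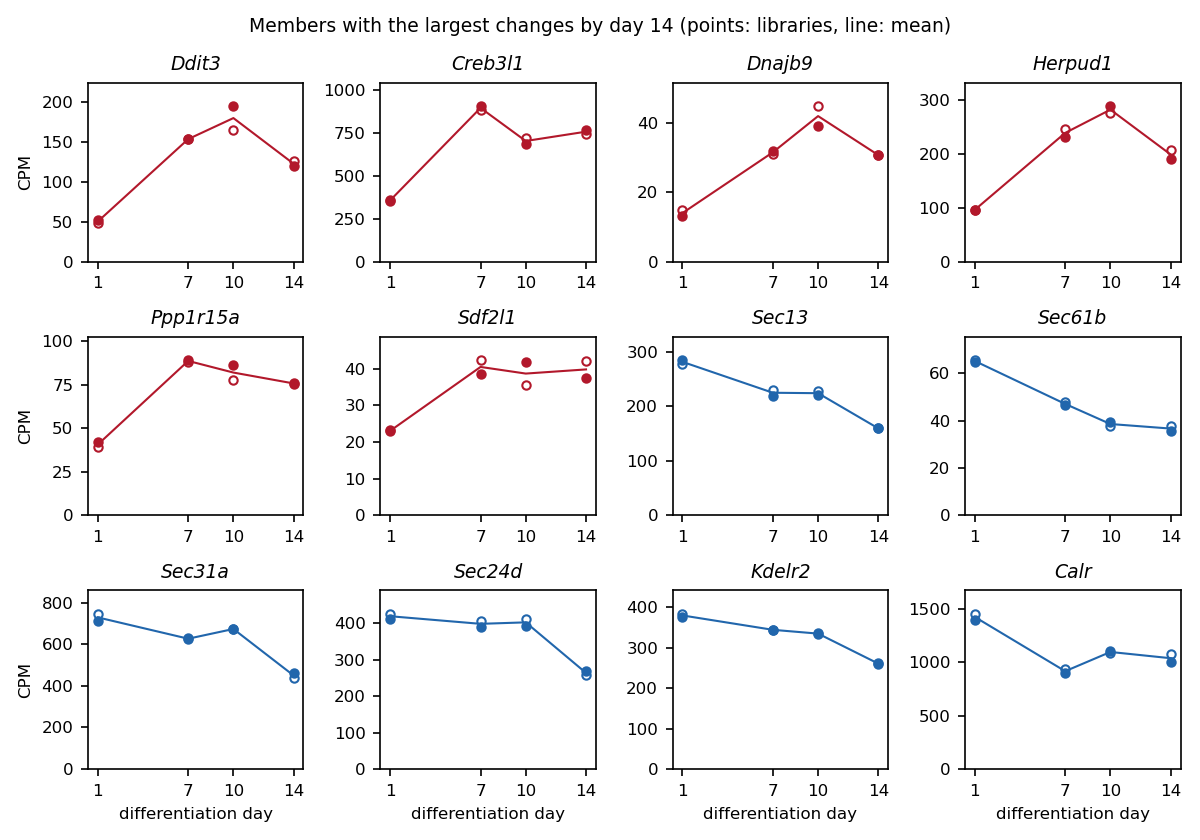
CPM on the y axis, from 0, against differentiation day on the x axis for the 6 members with the largest increases (red) and the 6 with the largest decreases (blue) at day 14, with filled and open points for replicates 1 and 2 and a line through their means. Ddit3 and Herpud1 are highest at day 10, and Sec13, Sec31a and Sec24d are lowest at day 14.

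Of the 11 chaperones, 6 were higher and 3 lower at day 14, with a median Log2FC of 0.20. This count and those of the other roles at day 14 stand beside 32.6% of all genes higher and 36.0% lower. Hspa5 was at 1199 and 1222 CPM on day 1, 1474 and 1579 on day 7, 1561 and 1485 on day 10, and 1192 and 1230 on day 14. Hspa5 was thus 1.26-fold higher at days 7 and 10 (Log2FC 0.33 ± 0.04 at each), and at day 14 its libraries overlapped those of day 1 (adjusted p = 0.99, limma). Dnajb9 was at 13.1 and 15.0 CPM on day 1, 32.0 and 31.2 on day 7, 39.2 and 44.9 on day 10, and 30.7 and 30.9 on day 14. It had the largest increase among the chaperones (Log2FC 1.52 ± 0.07 at day 10 and 1.08 ± 0.07 at day 14).

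Sdf2l1 was at 22.9 and 23.1 CPM on day 1, 38.5 and 42.3 on day 7, 41.7 and 35.6 on day 10, and 37.4 and 42.1 on day 14 (Log2FC 0.76 ± 0.07 at day 14). It thus rose early and kept its level. Creld2 (0.39 ± 0.05), Dnajc3 (0.25), Manf (0.22 ± 0.04) and Hsp90b1 (0.20 ± 0.04) had smaller increases at day 14. Calr was at 1393 and 1453 CPM on day 1, 895 and 937 on day 7, 1106 and 1085 on day 10, and 1000 and 1074 on day 14. This lectin chaperone, which binds ER calcium, was lower in all later libraries (Log2FC -0.46 ± 0.04 at day 14), as were Dnajb11 (-0.33 ± 0.04) and Hyou1 (-0.19 ± 0.04) at day 14.

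Among the isomerases, 3 of 5 were lower at day 14 and none was higher. Pdia3 fell from 1156 and 1187 CPM to 909 and 941 CPM (Log2FC -0.34 ± 0.04), and Pdia6 had a Log2FC of -0.30 ± 0.04. Ppib was called at day 14 (Log2FC -0.15 ± 0.04, adjusted p = 0.0048, limma), but not without day 1 replicate 1 (adjusted p = 0.027), day 1 replicate 2 (0.026) or day 14 replicate 1 (0.072), with no filter (0.061) or with edgeR on recovered reads (0.021). Fkbp10 was at 529 and 546 CPM at day 1 and at 537 and 557 CPM at day 14, and these overlapped (Log2FC 0.03 ± 0.04, adjusted p = 0.55, limma).

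Of the 8 COPII and retrieval genes, 6 were lower and 1 was higher at day 14, beside 36.0% and 32.6% of all genes, with a median Log2FC of -0.42. Sec13, the outer coat subunit shared with the nuclear pore, was at 285 and 278 CPM on day 1, 219 and 230.1 on day 7, 220.3 and 227 on day 10, and 159 and 159 on day 14. It fell in 2 steps and was 1.76-fold lower at day 14 (Log2FC -0.82 ± 0.04, adjusted p = 1.4e-16, limma). Its coat partner Sec31a was at 712 and 747 CPM on day 1, 624 and 630 on day 7, 672 and 675 on day 10, and 460 and 440.0 on day 14 (Log2FC -0.70 ± 0.04).

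Sec24d, the cargo-binding subunit needed for procollagen export, was at 412 and 426 CPM on day 1, 390 and 407 on day 7, 392 and 413 on day 10, and 269 and 258 on day 14. Its day 7 and day 10 values were not called against day 1, and day 14 was lower than day 7 (Log2FC -0.59) and day 1 (-0.67 ± 0.04, adjusted p = 1.7e-14, limma). Kdelr2, a retrieval receptor, was at 376 and 384 CPM on day 1, 344 and 345 on day 7, 334 and 336 on day 10, and 260.1 and 262 on day 14 (Log2FC -0.54 ± 0.03). Kdelr3, of the same family, went the opposite way, from 208 and 214 CPM to 270.2 and 288 CPM (Log2FC 0.40 ± 0.04). Sar1a, the GTPase that starts coat assembly, was called lower at day 14 (Log2FC -0.13), but its adjusted p was 0.013, 0.033 and 0.033 without day 1 replicate 1, day 1 replicate 2 and day 14 replicate 1. The Sar1a call was also lost with no filter (0.028), quantile normalization (0.015) and edgeR on recovered reads (0.024).

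Of the 8 translocation genes, 5 were lower and 1 was higher at day 14, with a median Log2FC of -0.24. Sec61b was at 64.7 and 65.5 CPM on day 1, 46.4 and 47.6 on day 7, 39.5 and 37.6 on day 10, and 35.7 and 37.5 on day 14. Every later library was lower, and the fold at day 14 was 1.76 (Log2FC -0.81 ± 0.05, adjusted p = 2.8e-13, limma). The pore subunit Sec61a1 changed later and less (Log2FC 0.02 at day 7 and -0.35 ± 0.04 at day 14). Sec63, which couples the channel to Hspa5, was the member called higher (Log2FC 0.25 ± 0.04). The call for Ssr2 at day 14 (Log2FC -0.14) was lost when day 1 replicate 1 or 2 or day 14 replicate 1 was left out (adjusted p = 0.011, 0.020 and 0.012) and with edgeR on recovered reads (0.013).

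In ER-associated degradation, 3 of 4 genes were higher at day 14 and none was lower. Herpud1 was at 96.8 and 95.8 CPM on day 1, 232 and 247 on day 7, 289 and 276 on day 10, and 191 and 208 on day 14. It was 2.91-fold higher at day 10 (Log2FC 1.54 ± 0.04) and stayed 2.05-fold higher at day 14 (Log2FC 1.04 ± 0.04, adjusted p = 1.4e-17, limma). Edem1, a lectin-like protein that marks misfolded glycoproteins for degradation, rose to day 14 (Log2FC 0.70 ± 0.04), and Sel1l did so too (0.32 ± 0.04).

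**Figure D5:**
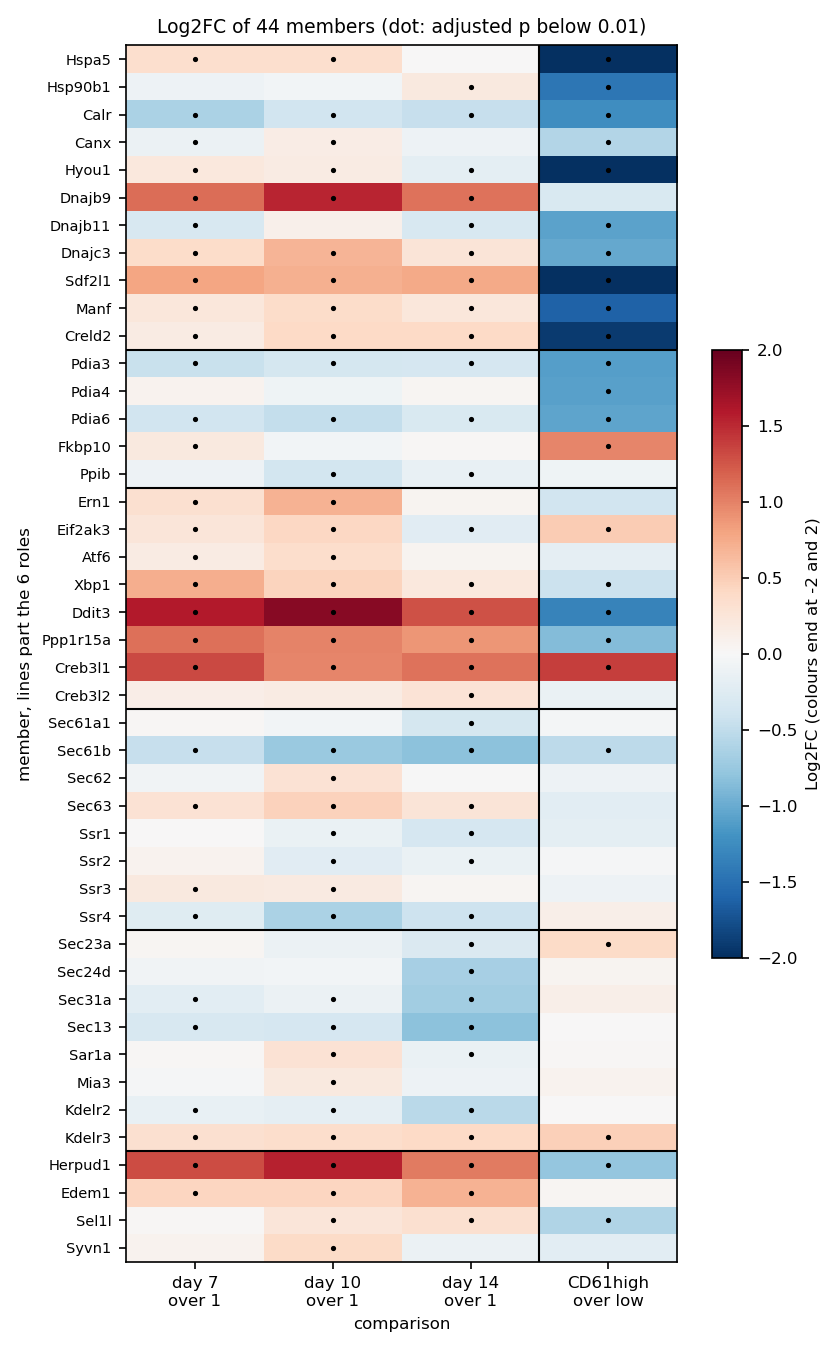
Log2FC of the 44 members (rows, by role) at days 7, 10 and 14 over day 1 and in CD61high over CD61low cells (columns), red for higher and blue for lower, with a dot where the adjusted p was below 0.01. Creb3l1 is red in all 4 columns, whereas Ddit3 is red in the time course (1.27 at day 14) and blue in the sort (-1.34).

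Set side by side, the experiments shared a direction for some called members and differed for others. Creb3l1 was higher both at day 14 (Log2FC 1.08) and in CD61high cells (1.38), as was Kdelr3 (0.40 and 0.47). Called lower in both were Calr (-0.46 and -1.25), Hyou1 (-0.19 and -2.18), Dnajb11 (-0.33 and -1.06), Pdia3 (-0.34 and -1.09) and Sec61b (-0.81 and -0.52). So was Pdia6 (-0.30 and -1.05), whose sort value is uncertain. The sort calls of Kdelr3 and Sec61b did not hold under every alternative. More members were called in opposite directions than in the same one. Ddit3 (1.27 and -1.34), Herpud1 (1.04 and -0.78), Ppp1r15a (0.88 and -0.86) and Sdf2l1 (0.76 and -2.51) were higher at day 14 and lower in CD61high cells. So were Creld2 (0.39 and -1.91), Sel1l (0.32 and -0.60), Dnajc3 (0.25 and -1.02), Manf (0.22 and -1.61), Xbp1 (0.21 and -0.43) and Hsp90b1 (0.20 and -1.44). Eif2ak3 was lower at day 14 and higher in CD61high cells (-0.23 and 0.51), and its sort call did not hold under every alternative. Among the members not called in the sort, Sec13 (-0.82 and 0.0038), Kdelr2 (-0.54 and 0.0049) and Sec24d (-0.67 and 0.05) were lower at day 14. The units, culture times and cell handling of the experiments differ, and the difference between their fold changes was not tested.

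Other genes of the same pathways were counted from lists kept separate from the members. Their counts stand beside 19.4% higher and 16.0% lower over all genes in the sort, and 32.6% and 36.0% at day 14. Of 20 further folding genes, 11 were higher and 3 lower in CD61high cells, and of the 18 tested at day 14, 3 were higher and 12 lower. Rcn3, an ER calcium-binding protein used for collagen (Log2FC 0.99 in the sort), and Qsox1, a secreted disulfide oxidase (0.83), had the largest increases in CD61high cells, and Ero1b, an ER oxidase (-1.94), and Hspa13 (-0.59) the largest decreases. Of 13 further genes of stress sensing and PERK and ATF4 output that were tested, 1 was higher and 6 were lower in CD61high cells. These were led by Atf3 (Log2FC -1.27), which also belongs to the dissociation list, and Chac1 (-1.15), both targets of ATF4, and the gene that was higher was Vldlr (0.98). At day 14, 8 of these 13 were higher and 3 lower, with Vldlr (2.28) and Atf3 (2.19) the largest increases.

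In ER-associated degradation, 2 of 13 further genes were higher and 5 lower in CD61high cells, with Derl1, a retrotranslocation channel subunit, the largest decrease (Log2FC -0.65) and Aup1 the largest increase (0.71). Among 26 further COPII, COPI and cargo receptor genes, 4 were higher and 1 lower in CD61high cells, no more than over all genes, and among the 25 tested at day 14, 4 were higher and 11 lower, with the COPI coat genes Copb2 (-0.74) and Copa (-0.69) the largest decreases. Of 23 further genes of translocation, signal peptidase and glycosylation, 3 were lower in CD61high cells, with the signal peptidase subunits Spcs2 (Log2FC -0.57) and Spcs3 (-0.55) the largest decreases, and none was higher. Cytosolic chaperones, tested for comparison, were 4 higher and 4 lower of 16, with a median Log2FC of -0.07, beside -1.44 for the ER chaperones.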

How the data were processed

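For the time course, the authors aligned reads with STAR and counted them with HTSeq-count (versions not given in the sources used here), and deposited CPM per gene. These CPM values were whole multiples of 1 read in 100.0% of values (tolerance 0.01 reads). For the sort, the authors ran Salmon on the GRCm39 transcriptome (Ensembl release 104) and deposited estimated counts, TPM and transcript lengths. Matching to GENCODE M39 named 115556 of 116747 transcripts, and estimated counts were summed per gene and rounded. Log2(CPM + 1) of genes above 1 CPM in at least 1 library was tested with limma 3.58.1 over all 8 libraries. For the sort, edgeR 4.0.16 (quasi-likelihood, TMM) was run on genes that reached 5 normalized counts in each of the 6 libraries. In both, p-values were adjusted by Benjamini-Hochberg over all genes tested and called below 0.01. edgeR on the recovered reads, run as an alternative, called 4432 genes higher and 4293 lower at day 14. DESeq2 1.42.0, other scalings and filters, the replicate block and each library left out were the other alternatives.

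Members, lists and tests were chosen with earlier results of these data known. Values in every library are given for the 6 largest increases and 6 largest decreases among called members at day 14 and in the sort (the sort had 5 increases), for the sensors and transcription factors and for Hspa5; of the further lists, at most the 2 largest changes in each direction are named. Promoter sequences are from RefSeq (GRCm38.p6). No 2 replicates agreed within sampling noise. Intervals are not given for single libraries, and SD and SE cover the spread between libraries. Time course duplicates are biological per the study's methods, and no source says whether they were separate platings.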

Additional observations from a re-analysis of the deposited data

How the results depend on the processing

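No member called at an adjusted p below 0.01 changed direction under any alternative. In the sort, 20 of 24 calls held under every alternative, as did 24 of 30, 31 of 36 and 31 of 34 at days 7, 10 and 14 against day 1, and 18 of 28 from day 7 to day 14. Requiring a Log2FC beyond 1 left 5, 3 and 4 members higher than day 1 on days 7, 10 and 14 and 0 lower, 0 higher or lower from day 7 to day 14, and 1 higher in the sort. Without a filter on low values, 3 members were higher from day 7 to day 14, and leaving out 1 library gave 3 (without day 7 replicate 1) to 6. Library size scaling alone gave 2 members higher and 35 lower in the sort, with negative Log2FC for Sec24d (-0.25), Sec31a (-0.19) and Mia3 (-0.23), and a transcript length offset gave 3 higher. The Xbp1 share difference ranged from -1.13 to 0.21 points with 1 library left out, and was positive without CD61low replicate 3 (0.21) or CD61high replicate 2 (0.03). Day 14 Log2FC of members not called ranged with 1 library left out from -0.022 to 0.0233 for Hspa5 (negative without day 1 replicate 1 or day 14 replicate 2), from -0.0012 to 0.0518 for Fkbp10 (negative without day 14 replicate 2) and from -0.0019 to 0.1241 for Ern1 (negative without day 14 replicate 1). These causes were not tested. Replicate numbers were not taken as pairs. Deviations of same-numbered libraries correlated at -0.317, 0.215 and -0.063 in the sort and at -0.025 to 0.061 in the time course. Differently numbered sort libraries correlated from -0.404 (CD61low replicate 3, CD61high replicate 2) to 0.464 (CD61low replicate 3, CD61high replicate 1). The shared groups of cells were not identified, and a block by replicate number does not account for them. With the replicate block, 5 members were higher and 19 lower in the sort and 16 and 18 at day 14, as without it. The 2 libraries per day and 3 per fraction limit the precision of each value.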
